A study of Mus musculus with 45 samples.

Results

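Transcripts of 6 genes that build the mouse egg coat or act at sperm-egg binding were followed from fully grown oocytes (FGOs) to late two-cell embryos. They were taken by gene symbol from a deposited expression table of 26214 genes: the zona pellucida glycoproteins Zp1, Zp2 and Zp3, the cortical granule protease Astl, the sperm receptor Izumo1r and the tetraspanin Cd9. All 6 were in the table and all 6 passed the filter of a mean of at least 1 TPM in every comparison. TPM (transcripts per 1000000) is a length-corrected share of a library's transcripts, so levels of different genes can be set side by side.

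Control FGOs came from H3f3b K36M-flox/+ females without Cre, and K36M FGOs came from H3f3b K36M-flox/+; Gdf9-Cre females, both on a hybrid C57BL/6 and 129 background and 3 to 4 weeks old. Gdf9-Cre acts in oocytes, and both groups carry the floxed allele. Once recombined, that allele produces an HA-tagged H3.3 histone with methionine in place of lysine at residue 36 (K36M), which lowers H3K36me2. Two-cell embryos came from oocytes of females of the same genotypes, taken after superovulation with their cumulus cells and fertilized in vitro with JF-1 sperm, and were harvested 31 to 32 h after fertilization. From K36M females crossed with wild-type males the paper expects both H3f3b +/+ and H3f3b K36M/+ offspring. The embryos were not separated by their own genotype here. There were 3 control and 3 K36M FGO libraries, each a pool of FGOs, and 7 control and 8 K36M oocyte-derived libraries, each of a single embryo. Control two-cell replicate 4, which the study set aside for a technical problem, was left out. The labels give replicate numbers but not the females behind them, so p-values measure the spread between these libraries. Embryo libraries had more PCR cycles than FGO libraries, and the study lists fewer reads for every embryo than for any FGO library. Stage, pooling, PCR cycles and depth cannot be told apart.

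The zona pellucida is a glycoprotein matrix that the growing oocyte secretes around itself. In the mouse it is assembled from ZP1, ZP2 and ZP3: ZP2 and ZP3 form the filaments, ZP1 cross-links them, and ZP2 is the protein that sperm bind. After fertilization the cortical granules release ovastacin, the product of Astl, which cleaves ZP2 and so ends sperm binding. JUNO, the product of Izumo1r, is a GPI-anchored protein of the egg plasma membrane that binds IZUMO1 on sperm, and CD9 organizes the membrane around it and is needed for fusion. Zona genes are transcribed in growing oocytes, with the help of the oocyte transcription factor FIGLA, which binds E-boxes (CANNTG) in their promoters.

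In RefSeq (GRCm38.p6, the assembly also called mm10) Zp1 lies on chromosome 19 (10914296 to 10920601, minus strand), with 12 exons in its curated transcript. Zp2 lies on chromosome 7 (120126762 to 120145291, minus strand), with 18 exons. Zp3 lies on chromosome 5 (135980105 to 135988624, plus strand), with 8 exons. Astl lies on chromosome 2 (127338639 to 127357655, plus strand), with 9 exons. Izumo1r lies on chromosome 9 (14885814 to 14903951, minus strand), with 5 exons. Cd9 lies on chromosome 6 (125460266 to 125494760, minus strand), with 8 exons, and was the only member overlapped by other annotated genes: the 2 long noncoding RNAs Gm28809 and Gm26728 on the opposite strand. The counting strand behind the TPM values is not given in the sources used here, so reads of Cd9 and of these RNAs may not have been separated.

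Promoter windows of 250 bases before a transcript start were found for 4 of the 6 genes, with 2 starts for Astl. The windows of Zp3 and of the downstream start of Astl are shown because each carries the E-box letters CAGGTG, on 1 strand or the other, near the start. They are printed 5′ to 3′ on the gene's own strand, up to the base before the start, with each CANNTG in capitals.

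Zp3, chr5:135979855-135980104, plus strand: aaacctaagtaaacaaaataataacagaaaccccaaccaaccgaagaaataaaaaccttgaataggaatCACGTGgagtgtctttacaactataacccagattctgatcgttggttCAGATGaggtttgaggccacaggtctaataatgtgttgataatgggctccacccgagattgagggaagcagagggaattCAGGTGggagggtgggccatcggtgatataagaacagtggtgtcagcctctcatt

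Astl, chr2:127341386-127341635, plus strand: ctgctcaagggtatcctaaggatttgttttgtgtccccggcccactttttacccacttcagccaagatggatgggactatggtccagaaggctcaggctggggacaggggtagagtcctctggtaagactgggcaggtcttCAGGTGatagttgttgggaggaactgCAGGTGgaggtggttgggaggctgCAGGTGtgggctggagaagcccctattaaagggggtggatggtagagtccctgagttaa

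CANNTG has the same form on both strands, so 1 search covers both. Zp3 and this start of Astl held 3 matches each. The window of Izumo1r (chr9:14903768-14904017, minus strand) held 1; it lies before the start of the curated transcripts, inside the first exon of longer predicted ones in part, and is not printed. The window of Cd9 (chr6:125494761-125495010, minus strand) held 3, including CAGGTG at -73, and is not printed either. No match lay in the 250 bases before the upstream start of Astl, which says only that these letters are not in that window. At least 1 match was present in 66.2% of 32851 RefSeq windows of this length, and at least 3 matches in 12.2%. CAGGTG, read on either strand, began at 55 bases before the start in Zp3 (position -55), at -109, -83 and -59 in Astl and, as CACCTG, at -57 in Izumo1r. With Cd9, 4 of the 5 member windows held CAGGTG on either strand, as did 17.2% of all windows. A match is a description of letters, not a bound site.

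The libraries carried the markers of their labels. The 7 oocyte markers summed to between 14197 and 15663 TPM in the 6 FGO libraries and to between 1854 and 3778 TPM in the 15 embryos, and 7 of 8 zygotic genes of the late two-cell stage passed the test as higher in embryos of both genotypes. The 14 granulosa and cumulus markers summed to 136 to 149 TPM in control FGOs, 145 to 220 in K36M FGOs, 168 to 305 in control embryos and 77.8 to 398 in K36M embryos. Nr5a2 made up 67.1 to 77.1 TPM of this sum in control FGOs and 72.6 to 141 in K36M FGOs. It was at 24.1 to 249 TPM in control embryos and 61.8 to 276 in K36M embryos. Cyp19a1 had the next highest FGO means, 25.1 TPM in control and 24.9 in K36M, with embryo means of 0.80 and 1.06. The 5 stroma markers summed to at most 8.58 TPM in FGOs, 15.5 in control embryos and 34.2 in K36M embryos, and the 5 blood markers to at most 0.38, 15.4 and 59.5. The part of these in the embryo results was not tested. H3f3b, the gene that carries the allele, lay between 265 and 308 TPM in control FGOs and between 377 and 418 in K36M FGOs. A gene's TPM does not separate the mutant allele from the others, so this value does not check the labels. Among 2409 genes with a control FGO mean of at least 100 TPM, none was listed at 0 in an FGO library, 0.125% to 3.86% were at 0 in control embryos and 1.29% to 6.43% in K36M embryos, with K36M replicates 2 (5.27%) and 8 (6.43%) highest.

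The 3 zona genes were among the most abundant transcripts of control FGOs. Zp3 was 2319, 2386 and 2226 TPM in control replicates 1 to 3, a mean of 2310.3 ± 80.3 (SD, n = 3) that placed it 22nd of 26214 genes. Zp2 was 2051, 2017 and 2234 TPM (2101 ± 117, n = 3), 25th. The ranges of Zp3 and Zp2 overlapped, so their order was not beyond their spread. Zp1, whose product cross-links the filaments, was 805, 732 and 734 TPM (757 ± 41.4, n = 3), 141st and below both. Together the zona transcripts made up 0.517% of all TPM in control FGOs. Astl was 324, 331 and 339 TPM (331 ± 7.29, n = 3), 520th and clear of its neighbours in this order. Izumo1r was 173, 177 and 164 TPM (172 ± 6.48, n = 3) and Cd9 was 148, 126 and 183 TPM (152 ± 29.0, n = 3). These last levels overlapped, and Cd9 was the gene that varied most between pools, with a coefficient of variation of 19.1% against 2.2% to 5.56% for the other 5 and a median of 9.19% over 8755 genes with a mean of at least 10 TPM.

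**Figure D1:**
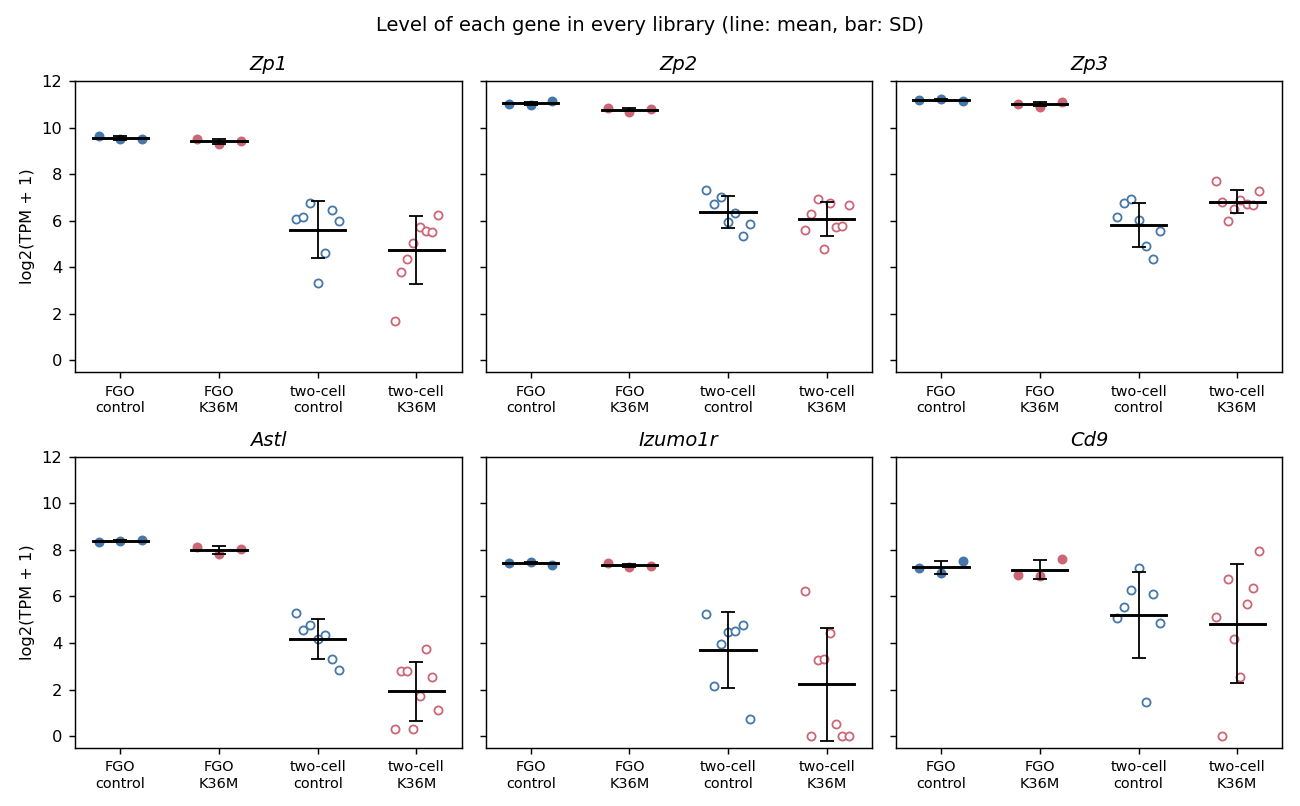
The level of each gene, as log2(TPM + 1) on the vertical axis, in 3 control and 3 K36M FGO libraries (filled) and 7 control and 8 K36M two-cell embryos (open), with group means as lines and SDs as bars. For Zp1, Zp2, Zp3, Astl and Izumo1r all FGO points lie above all embryo points, while the embryo points of Cd9 reach into the FGO range.

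The first comparison set K36M FGOs against control FGOs, and none of the 6 genes passed the test. Only the K36M females carried Gdf9-Cre, so Cre and the mutant histone cannot be told apart. All 6 genes were lower in K36M than in control FGOs by their fitted log2 fold changes, which ran from -0.10 to -0.39, with a median of -0.16 against 0.01 over the 13775 genes tested. None had an adjusted p under 0.05 (limma on log2(TPM + 1), Benjamini-Hochberg over all genes), where 0.00726% of all genes, the single gene Cdo1, did. At an unadjusted p under 0.05, 3 of the 6 (Zp2, Zp3 and Astl) were lower, against 5.34% of all genes, and the 2 groups did not overlap, K36M lower, for 4 of the 6, against 8.17% of all genes.

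Astl had the largest of these differences. It was 279, 222 and 260 TPM in K36M FGO replicates 1 to 3 (254 ± 29.0, n = 3), and all 3 lay below the lowest control pool at 324 TPM. The log2 fold change was -0.39 (SE 0.09, limma adjusted p = 0.306). Without K36M replicate 1 it was -0.46 with a limma adjusted p of 0.0452, the only alternative in which a member passed; over all 12 alternatives its adjusted p ran from 0.0452 to 0.712. Leaving out that library raised the number of genes called from 1 to 300.

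Zp2 was 1831, 1649.7 and 1755 TPM in K36M FGOs (1745 ± 91.0, n = 3), all below the lowest control pool at 2017 TPM. Its log2 fold change was -0.27 (SE 0.07, limma adjusted p = 0.318). Zp3 was 2057, 1914 and 2181 TPM (2051 ± 133, n = 3), just below the lowest control pool at 2226 TPM, with a log2 fold change of -0.17 (SE 0.07, limma adjusted p = 0.435), which was -0.049 after quantile normalization. The values of Zp1 were 724, 627 and 690.2 TPM (680.3 ± 48.9, n = 3), against a lowest control of 732 TPM, with a log2 fold change of -0.15 (SE 0.08, limma adjusted p = 0.514), or -0.098 without K36M replicate 2. The zona sum was 0.448% of all TPM in K36M FGOs. Izumo1r, at 169.9, 154 and 156 TPM, overlapped with the controls (log2 fold change -0.10, 95% interval -0.29 to 0.09). Cd9, at 121, 117 and 195 TPM, overlapped too, and its highest and lowest FGO values were both in K36M pools. Its log2 fold change of -0.10 had a 95% interval of -0.56 to 0.37 and turned positive, between 0.01 and 0.04, when control replicate 3, K36M replicate 1 or K36M replicate 2 was left out. In pooled oocytes, fewer cells with a transcript and less RNA per cell cannot be told apart.

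**Figure D2:**
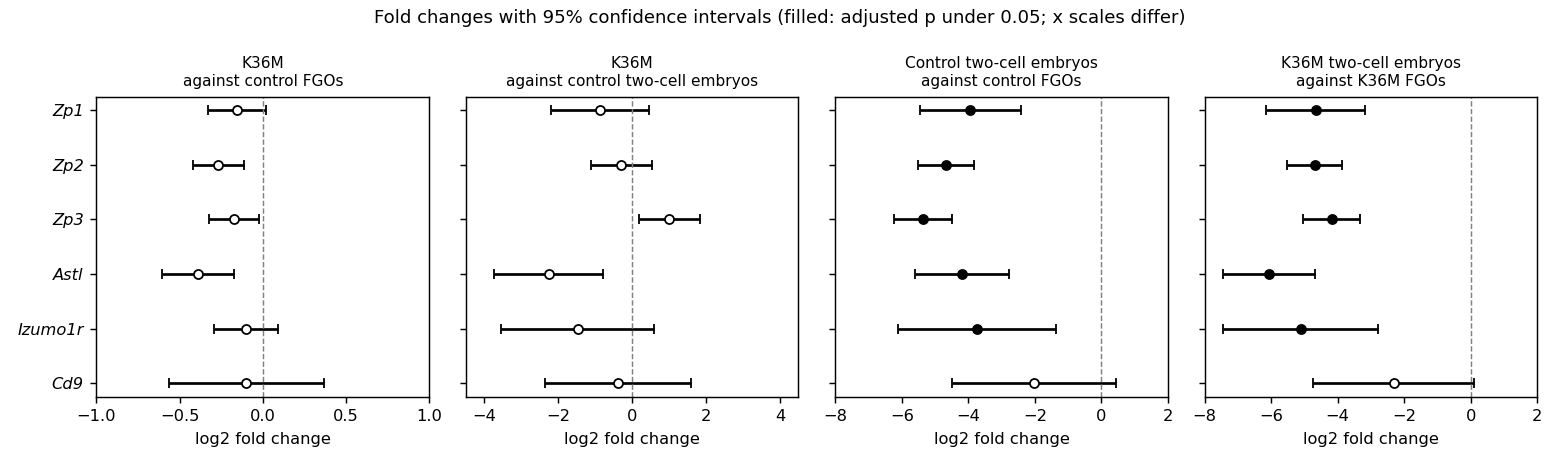
Log2 fold changes (horizontal axes, which differ in scale) of the 6 genes with 95% confidence intervals in 4 comparisons; filled points have an adjusted p under 0.05. No point is filled in the comparisons of K36M with control, and every gene but Cd9 is filled in the comparisons of embryos with FGOs.

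Between the FGO and the late two-cell embryo the zona and sperm-binding transcripts fell steeply in controls. Of the 6 genes, 5 were lower with a limma adjusted p under 0.05, against 13.2% of the 17358 genes tested, and the same 5 did not overlap between the stages, against 18.2% of all genes. The fall was not particular to these genes. All 7 oocyte markers were lower at the same threshold, with a median log2 fold change of -3.47. Among the 6, Zp3 fell by the most: it was 19.3 to 121 TPM with a median of 63.6 in the 7 control embryos, so that their mean was 2.82% of the FGO mean. No embryo exceeded 5.25% of it. Its log2 fold change was -5.37 (SE 0.42, limma adjusted p = 1.03e-09). Zp2 was 39.6 to 161 TPM with a median of 79.9 in the embryos, 4.28% of the FGO mean (log2 fold change -4.67, SE 0.41, limma adjusted p = 7.62e-09). Zp1 was 8.98 to 107 TPM with a median of 65.8, 7.99% of the FGO mean (log2 fold change -3.95, SE 0.74, limma adjusted p = 0.000296). Zp1 was the least abundant zona transcript in FGOs, but in control embryos the ranges of all 3 overlapped.

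Astl, whose product has done its work on ZP2 by this stage, was 6.11 to 38.1 TPM with a median of 19.0 in control embryos. That was 5.93% of the FGO mean, with a log2 fold change of -4.20 (SE 0.68, limma adjusted p = 5.9e-05). Izumo1r was 0.66 to 37.2 TPM with a median of 21.2, 10.4% of the FGO mean, with a log2 fold change of -3.74 (SE 1.15, limma adjusted p = 0.0179). This call was lost with a pseudocount of 0.1 (limma adjusted p = 0.102) and when any control FGO library was left out (0.0616 to 0.0661). Cd9 did not pass in the main fit. Its embryos were at 1.73 to 149 TPM with a median of 45.0 and a mean of 37.6% of the FGO mean, and only replicate 5 reached into the FGO range. Its log2 fold change was -2.03 with a 95% interval of -4.49 to 0.44 (limma adjusted p = 0.225). That interval holds the values of Izumo1r, Zp1 and Astl, and no test compared Cd9 with the other members. It passed only with array weights, which let the more even libraries count more (log2 fold change -1.52, limma adjusted p = 0.0228). Over the 2409 genes with a control FGO mean of at least 100 TPM, the median share kept was 61.3% (quartiles 29.4% and 117%). A lower share than that of Zp3 was found for 15 of them, than that of Zp2 for 37, than that of Astl for 70, than that of Zp1 for 119 and than that of Izumo1r for 171, but for 795 in the case of Cd9.

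**Figure D3:**
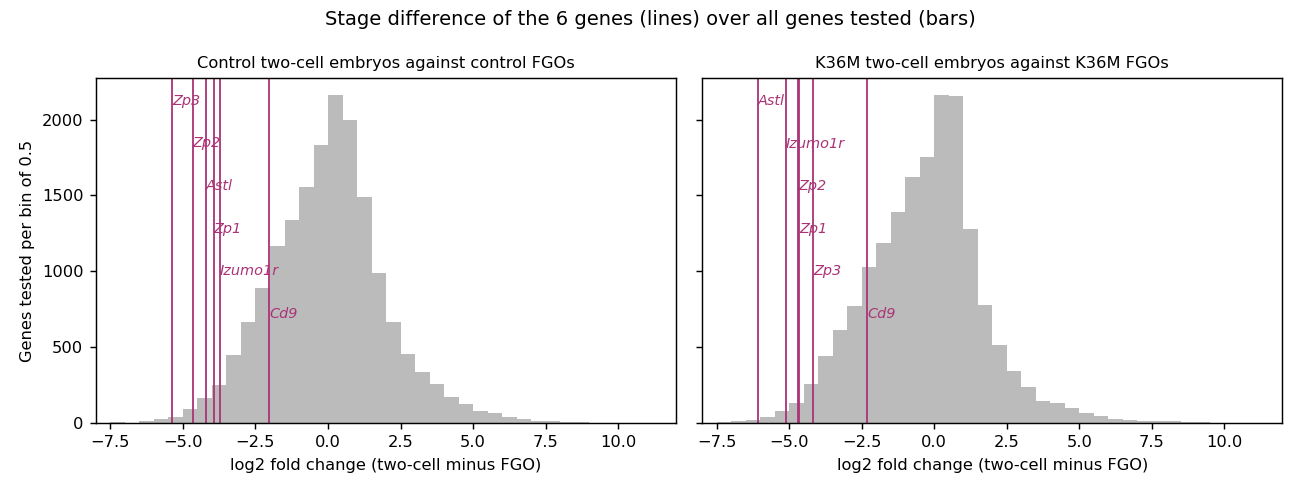
Log2 fold changes between two-cell embryos and FGOs for all 17358 genes tested (bars, genes per bin of 0.5) and for the 6 genes (lines), in control and K36M. The lines of 5 genes lie in the lower tail, between -3.74 and -5.37 in controls and between -4.19 and -6.07 in K36M, and that of Cd9 lies nearer the centre.

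K36M embryos gave the same 5 calls. Against K36M FGOs, 5 of the 6 genes were lower with a limma adjusted p under 0.05, where 18.6% of all genes were, and 5 did not overlap between stages, where 17.2% of all genes were lower without overlap. All 7 oocyte markers were again lower at that threshold, with a median log2 fold change of -3.92. The deepest fall among the 6 was that of Astl, with 0.24 to 12.2 TPM and a median of 3.55 in the 8 K36M embryos, 1.62% of the FGO mean (log2 fold change -6.07, SE 0.67, limma adjusted p = 2.52e-07). Izumo1r was listed at 0 in K36M embryos 2, 7 and 8, had a median of 4.57 and reached 73.5 TPM in replicate 1 (log2 fold change -5.11, SE 1.13, limma adjusted p = 0.0013). Zp1 (2.24 to 74.8 TPM, median 38.3) and Zp2 (26.8 to 123 TPM, median 65.8) kept 5.23% and 4.23% of their FGO means. Their log2 fold changes were -4.67 and -4.69 (SE 0.72 and 0.40). Zp3 was 61.7 to 205 TPM with a median of 108, and kept 5.75% (log2 fold change -4.19, SE 0.41, limma adjusted p = 4.56e-08). Cd9 spanned the FGO range, from a listed 0 in replicate 2 to 249 TPM in replicate 8, with a median of 41.8 and a log2 fold change of -2.32 (95% interval -4.74 to 0.10, limma adjusted p = 0.146). It passed with array weights (log2 fold change -2.16, limma adjusted p = 0.0068). The 5 calls also held without K36M embryos 2 and 8 (limma adjusted p at most 0.0040), the embryos with the most high-FGO genes at 0. That setting was chosen after the data had been seen.

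K36M oocyte-derived embryos were then compared with control embryos. None of the 6 genes passed the test, where 0.0% of 17362 genes had an adjusted p under 0.05 (limma), and both groups overlapped for every gene. At an unadjusted p under 0.05 there were 2 of 6, against 7.71% of all genes (1338 genes), and these 2 lay in opposite directions. Of all genes, 1.2% were higher and 6.5% lower at that level. Zp3 was higher: 7 of the 8 K36M embryos lay above 71.1 TPM, a level that only 2 of the 7 control embryos exceeded. That level is the value of control replicate 1 and was chosen after the values were seen. Above the highest control embryo, at 121 TPM, lay only K36M replicates 1 and 8, at 205 and 152 TPM. The log2 fold change was 1.01 (SE 0.40, 95% interval 0.17 to 1.84, limma adjusted p = 0.578). Astl was lower: 7 of the 8 K36M embryos lay below 6.11 TPM, the lowest control value, and only K36M replicate 6, at 12.2 TPM, lay among the controls. Its log2 fold change was -2.26 (SE 0.72, 95% interval -3.74 to -0.78, limma adjusted p = 0.531). Over all alternatives the adjusted p ran from 0.511 to 0.849 for Zp3 and from 0.329 to 0.849 for Astl, and neither changed direction, but the log2 fold change of Zp3 was 0.62 with array weights.

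The other 4 members were lower in K36M embryos by their fitted values, with intervals that included 0. The log2 fold change was -0.88 for Zp1 (95% interval -2.21 to 0.45) and -0.29 for Zp2 (-1.12 to 0.54). Without K36M replicate 1 that of Zp1 was -0.44, and that of Zp2 was -0.11 without K36M replicate 4, -0.13 without control replicate 1, -0.18 without control replicate 3 and -0.46 without control replicate 7. With array weights the value of Zp2 was -0.48, and with median-of-ratios scaling it was -0.18. The log2 fold change was -1.48 for Izumo1r (-3.54 to 0.59) and -0.39 for Cd9 (-2.36 to 1.58). That of Izumo1r was -0.74 without K36M embryos 2 and 8, where it was listed at 0, and -2.70 with a pseudocount of 0.1. The value of Cd9 ran from -1.02 without control replicate 6 to 0.30 without K36M replicate 2, where it was listed at 0. Over all 17362 genes the median log2 fold change was -0.26, near the value of Zp2. After quantile normalization that median was -0.01, and Zp2 stood at -0.26. More genes of high FGO level were at 0 in K36M than in control embryos (medians 1.66% and 0.789%). Astl was above 0 in all 8 K36M embryos, but only at 0.24, 0.25 and 1.17 TPM in replicates 4, 1 and 8. The part of such zeros in the lower values of Astl and Izumo1r was not tested.

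The genotype-by-stage interaction asked whether the stage difference itself depended on genotype. None of the 6 genes passed, where 0.0% of 17358 genes had an adjusted p under 0.05 (limma) and 199 had an unadjusted p under 0.05. The largest terms were those of Astl (-1.87, SE 0.96, 95% interval -3.85 to 0.11), Izumo1r (-1.38, SE 1.61, -4.69 to 1.94) and Zp3 (1.18, SE 0.59, -0.04 to 2.40), each with a limma adjusted p of 1.00. The term of Astl was -1.18 after quantile normalization, and that of Izumo1r was -2.60 with a pseudocount of 0.1 and -0.64 without K36M embryos 2 and 8.

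Ratios within a library do not depend on how the library was scaled, and they are given here as a description, since they were chosen after the values had been seen. In FGOs the Zp3 to Zp2 ratio was steady, at 0.996 to 1.18 in controls and 1.12 to 1.24 in K36M. In control embryos it ran from 0.360 to 1.04 with a median of 0.795 and was above 1 in 2 of 7. In K36M embryos it ran from 0.503 to 4.29 with a median of 1.68 and was above 1 in 7 of 8, replicate 3 being the exception. The Astl to Zp2 ratio was 0.152 to 0.164 in control FGOs and 0.135 to 0.152 in K36M FGOs. In embryos it had a median of 0.228 in controls (0.106 to 0.275) and of 0.0351 in K36M (0.0052 to 0.232). Control and K36M embryos overlapped in both ratios.

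**Figure D4:**
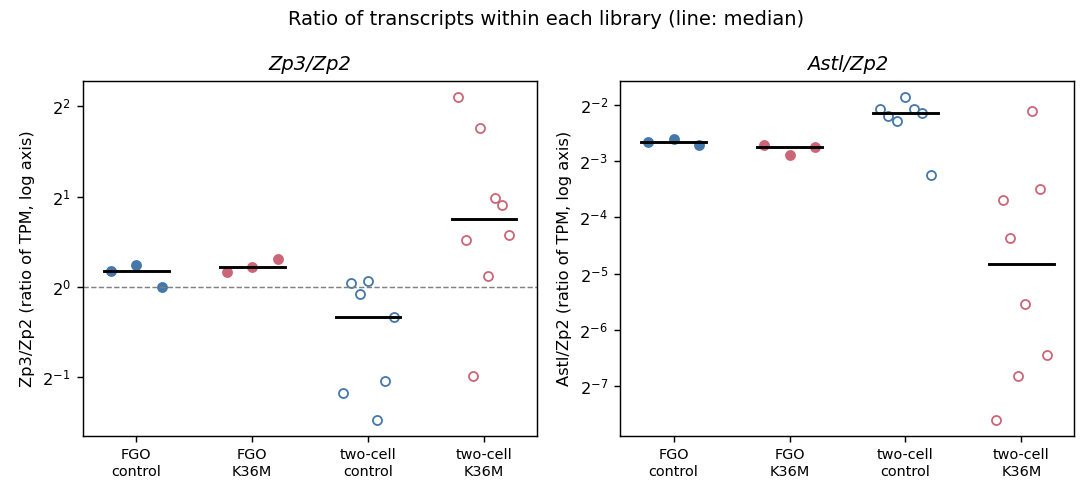
TPM ratios of Zp3 to Zp2 (left) and Astl to Zp2 (right) within each library, on log axes, with group medians as lines and a dashed line at a ratio of 1. FGO points are tight in both genotypes, and embryo points spread, with the K36M medians at 1.68 and 0.0351.

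Single embryos varied far more than pools of FGOs. The coefficient of variation of the members was 47.9% to 83.1% in control embryos, with a median of 57.4% over all genes with a mean of at least 10 TPM, and 36.7% to 180% in K36M embryos, with a median of 68.9%. Cd9 and Izumo1r were the most variable members in both. Within the 15 embryos, after the group means were taken out, the members did not move as a block: the highest Pearson correlation of log2(TPM + 1) was that of Zp2 and Astl (r = 0.54, Spearman's rho = 0.61), Zp2 and Zp3 had r = 0.37, and the other pairs lay between -0.46 and 0.23. These points share their libraries and the correlations are a description of 15 embryos.

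Over all 21 libraries, where the difference between stages sets most of the pattern, the genes whose levels were most like each member were found among 10058 genes with a mean of at least 10 TPM. For Zp2 these were Tet3 (r = 0.98), Dera and Ooep (both 0.97). For Zp3 they were Tle6 (0.97), Tdrd5 (0.96) and Gm46120 (0.95). For Astl they were Extl3 (0.95), Tmbim6 (0.94) and Nobox (0.94), and for Zp1 they were Nfya (0.92), Aspm (0.91) and Elobl (0.91). For Izumo1r they were Ube2g1 (0.92), Exo5 (0.90) and Orc5 (0.90). The highest likeness was lowest for Cd9, with Vdac3 (0.87), Dap3 (0.86) and Scaf8 (0.84). Among the members, Zp2 ranked 11th of the genes most like Zp3 and 10th of those most like Astl, while Zp1 ranked 208th for Zp2.

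The genes that work beside the 6 were then counted by list. In K36M against control, at either stage, no gene of any list passed the test. Between the stages, of 8 regulators of zona gene transcription 4 fell and 1 rose in each genotype, where 13.2% of all genes fell and 13.4% rose in control and 18.6% fell and 10.8% rose in K36M. The list had a median log2 fold change of -2.13 in control and -2.59 in K36M, against 0.00 and -0.18 over all genes. Figla fell from 109.5 ± 14.5 TPM in control FGOs (SD, n = 3) to 3.81 ± 3.94 in control embryos (n = 7), a log2 fold change of -5.01 in control and -6.42 in K36M. Nobox, an oocyte homeobox factor, fell too, with log2 fold changes of -4.01 in control and -5.95 in K36M. Those of Lhx8, a LIM-homeobox factor of the oocyte, were -2.67 and -5.82. Tbpl2, the oocyte's TBP-related factor, also fell. Taf4b, a TFIID subunit, rose, with log2 fold changes of 2.29 in control and 2.24 in K36M.

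Of 7 genes for partners of CD9 and JUNO on the egg surface, 1 fell in control and 3 in K36M, against 13.2% and 18.6% of all genes. Ptgfrn, an immunoglobulin protein bound by CD9, fell in both, with log2 fold changes of -3.31 in control and -3.68 in K36M. The integrin chains Itga6 (-2.10) and Itgb1 (-2.97) passed in K36M, with values of -1.20 and -2.21 in control that did not pass. The GPI anchor that holds JUNO to the membrane is made by a series of enzymes, of whose 24 genes 2 fell in control and 5 in K36M, against 13.2% and 18.6% of all genes, so these counts stood near or below the share of all genes. Pigk and Pigu, subunits of the transamidase that attaches the anchor, fell in both (log2 fold changes of -4.31 and -3.92 in control). Dpm2, a subunit of the enzyme that supplies the mannose donor, fell in K36M (-3.56). Median log2 fold changes of the anchor genes were -0.63 in control and -1.21 in K36M.

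Zona glycoprotein processing showed both directions in both genotypes, with 3 of 8 genes lower and 2 higher, where 13.2% of all genes were lower and 13.4% higher in control, and 18.6% and 10.8% in K36M. Furin, a protease that cleaves zona precursors, fell, with a log2 fold change of -1.70 in control, and so did C1galt1c1, the chaperone of O-glycan core synthesis (-3.28). Mgat2, an N-glycan branching enzyme of the Golgi, rose from 6.63 ± 2.47 TPM (SD, n = 3) to 339 ± 96.6 (n = 7) in control, a log2 fold change of 5.48, and the Golgi mannosidase Man2a2 rose with a log2 fold change of 4.13. Of 12 tested genes of cortical granule transport and exocytosis, 2 fell in control and 3 in K36M, near the 13.2% and 18.6% of all genes that fell. Nsf, the ATPase that recycles SNARE complexes, fell, with log2 fold changes of -3.08 in control and -3.72 in K36M, and so did Syt1, a calcium sensor of exocytosis (-3.61 and -2.47). Vamp3, a vesicle SNARE, passed in K36M (-3.96). Of 11 sperm partner genes tested, 3 (Tmem81, Spam1 and Zpbp2) fell in both genotypes, against 13.2% and 18.6% of all genes, from FGO means of at most 49.6 TPM.

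**Figure D5:**
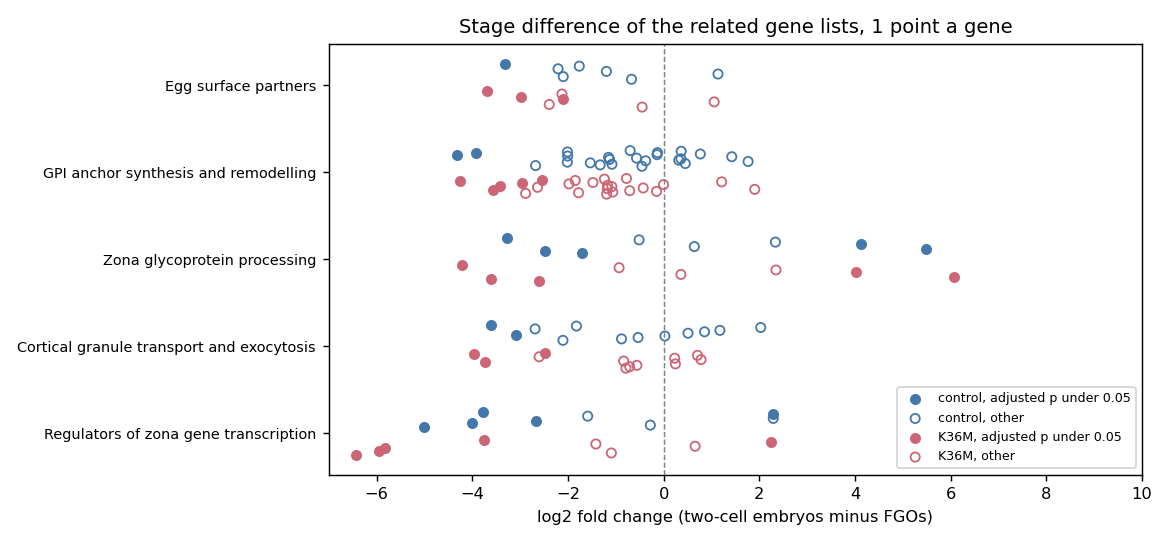
Log2 fold changes between two-cell embryos and FGOs (horizontal axis) for the tested genes of 5 related lists, in control (upper row of each list) and K36M (lower row); filled points have an adjusted p under 0.05. Filled points above 0 are confined to zona glycoprotein processing (Mgat2 and Man2a2) and regulators of zona gene transcription (Taf4b) among the lists shown.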

How the data were processed

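RNA was measured with a stranded SMART-Seq kit in 22 libraries, of which 21 were used. According to the methods and the submitters' processing notes, the authors trimmed reads with Trim Galore, mapped them to mm10 with HISAT2, removed ribosomal reads with bedtools, counted genes with featureCounts and tested counts with edgeR. They deposited TPM values, summing to 1000000 in each library. TPM keeps no read depth, so no count test was run and the precision behind a low value is unknown. The annotation and strand setting of the counting are not given in the sources used here.

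Here values were put on a log2 scale after adding a pseudocount of 1 and tested by limma (version 3.58.1, R 4.3.3; lmFit, then eBayes with a trend). A gene entered a fit when its mean over those libraries was at least 1 TPM. P-values were adjusted over all genes entered (Benjamini-Hochberg) and called under 0.05. FGOs and embryos were fitted apart for K36M against control, and together for the stage comparisons and the interaction, which share their FGO and embryo libraries. The fits were tested on simulated data. All 6 genes were named, with up to 3 genes of each related list, those with the largest called stage changes and a mean of at least 10 TPM. Marker lists are given as counts and sums. Other list genes in the text were chosen after their values were seen. Members and lists were chosen with earlier results of these data known. Promoters and positions are from RefSeq GRCm38.p6. Python 3.11.15, pandas 2.3.3, numpy 2.4.6 and matplotlib 3.10.9 were also used.

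The alternatives were a pseudocount of 0.1, no filter, quantile normalization, median-of-ratios scaling, array weights, a replicate block, dropping each FGO library and restoring the fourth control embryo. Leaving out embryos was added after seeing the data. Tables of the authors' comparisons and the other assays were not used here. The genes most like Astl within embryos are not reported here.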

Additional observations from a re-analysis of the deposited data

Results flagged for a closer look

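Cd9 in control embryos had a sample far below the others: control two-cell replicate 6 stood at 1.45 on the log2(TPM + 1) scale (1.73 TPM), while the other 6 embryos lay between 28.3 and 149 TPM. Control two-cell replicate 6 was also among the control embryos with more genes of high FGO level listed at 0 (3.20%). Replicate 7 had a larger share of them at 0 (3.86%), with Cd9 at 67.8 TPM. A link between these zeros and the Cd9 value was not tested.

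The Astl to Zp2 ratio had a low control embryo too: replicate 8 stood at -3.24 on the log2 scale (a ratio of 0.106), while the other 6 lay between 0.204 and 0.275. Of 16 sets of embryo values examined in this way, 2 held such a sample, and chance gives about 1 in 20.

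Astl was at 39.5 TPM in control two-cell replicate 4, the library that the comparisons did not use, just above the highest control embryo used (38.1 TPM).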

How the results depend on the processing

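In the stage comparisons all 6 genes kept their direction under every alternative run, and Zp1, Zp2, Zp3 and Astl kept their calls. Over all comparisons 399 of 414 member values kept direction and call, 3 gained a call, 4 lost it and 8 turned sign. Of the latter, Cd9 in K36M against control FGOs ran from -0.334 to 0.042 and, in embryos, from -1.02 to 0.30 when libraries were left out in turn. The interaction term of Zp2 (-0.02) was 0.13 with median-of-ratios scaling, 0.16 with the replicate block and -0.067 to 0.013 when FGO libraries were left out. The causes were not tested.

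The number of genes called between K36M and control FGOs, 1, became 0 with a pseudocount of 0.1, no filter or the replicate block, and 0 to 300 when FGO libraries were left out, with 0 to 1 of the members among them. Between K36M and control embryos it was 0, and 1 with array weights or without K36M embryos 2 and 8; leaving out single embryos gave 0 to 1. For control embryos against control FGOs, 4615 genes became 9730 with array weights and 2844 to 2877 when FGO libraries were left out. For K36M, 5094 became 8527 with array weights. The interaction called 0 genes, 13 with no filter, 3 with array weights and 0 to 3 when FGO libraries were left out. Of the calls in control embryos against control FGOs, 50.3% were higher in embryos, and 38.7% after median-of-ratios scaling, which moved the median of all genes from 0.00 to -0.18.

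Same-numbered libraries share only a number: correlations of their deviations ran from -0.10 to 0.10. The replicate block gave 3887 and 4199 calls in the control and K36M stage comparisons, with 5 members called in each, and changed no member's call. TPM values do not carry read counts, so the reads behind a listed 0 cannot be given.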

Other observations

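Control two-cell replicate 4, which entered no comparison, held 39.5 TPM of Zp1, 75.5 of Zp2, 43.5 of Zp3, 39.5 of Astl, 19.6 of Izumo1r and 57.9 of Cd9. All but Astl fell inside the range over the 7 embryos used. The Astl value was the highest of all 16 embryos.

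Within the 15 embryos, after group means were taken out, the genes most like 5 of the members differed from those over all libraries. They were Mkrn1, Rnf225 and Stk11ip for Zp1, Cdk16, Zfp182 and Epop for Zp2, and Acadsb, Ube4a and Tsn for Zp3. For Izumo1r they were Exo5, Ubl3 and D7Ertd443e, and for Cd9 Plvap, Nelfb and Srsf6. Among these 5 members, Exo5, an exonuclease, was the only gene named for the same member both here and over all 21 libraries. These are the highest of 10058 correlations over 15 points and are given as a description.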
